A study of Ovis aries with 23 samples.

Results

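The developmental genes described here are 207 of the 25197 sheep genes counted in the pars tuberalis (PT), the strip of pituitary tissue around the pituitary stalk. They were taken from the study's category table, which sorts 1324 genes found to be differentially expressed (DE) with photoperiod into functional categories. Of these, 231 carry the category Development. Genes that also carry the categories of ER, Golgi and transport, nervous system or circadian rhythm were removed, which left 220, and 13 more were left out by symbol. The members were thus selected on measured values, the authors' DE tests of photoperiod groups. The study's list of DE genes names 81 of the 207 for a comparison of short photoperiods (SPs) with long photoperiods (LPs) in these samples. It names 90 for another experiment of the study, whose samples were not analysed here. For that experiment the list held here is shortened, so the 90 are only a part.

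Castrate male Scottish blackface sheep were held in SPs, or were moved from SPs to LPs and sampled after 1, 7 or 28 days. All groups, the SP controls included, share the castration. The SP group has 5 samples and each LP day has 6, and RNA from the PT of each sample was sequenced to give reads per gene. Nothing in the labels says that the samples are separate animals, so the p-values measure the spread between these samples.

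The PT reads day length through the melatonin signal of the night. Its specialised thyrotrophs make thyrotropin, a dimer of a common alpha subunit and the beta subunit encoded by TSHB, which acts on the neighbouring hypothalamus and so links season to reproduction. Folliculostellate cells, which express S100B and often GFAP and VIM, form a network around the endocrine cells. Genes labelled developmental in an adult tissue are a mixed class, and the members include hormones, matrix proteins, signalling proteins, transcription factors and genes of neural and glial cells.

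Total counts ran from 307952 in LP day 1 sample 4 to 4413929, with a median of 3332320 and a second lowest of 1852503. For that library 3 counts of a gene amount to 9.74 CPM (counts per 1e6 mapped counts), against at most 1.62 CPM in any other sample, so this library says little about low members. Counts of LP day 1 samples 3 and 4 differed by a chi-square of 1.14 per gene, where counting noise alone gives about 1. This was the lowest of the 55 pairs within groups, a measure that falls with depth. Sample 4 against the other LP day 1 samples gave 1.75 to 7.15. Whether samples 3 and 4 share a source was not tested, and the main p-values treat them as separate. They were kept as 2 samples, and their sum is used as an alternative. Levels are given in CPM after TMM scaling and are compared between samples only, since no gene lengths were used. In bulk tissue, fewer cells of a type and less RNA per cell cannot be told apart. CGA, the gene of the common alpha subunit and so not a marker of thyrotrophs alone, was high in every sample, between 3886 and 11559 CPM. GH1, growth hormone of the adjoining pars distalis, ran from 4578 to 48124 CPM, and the melatonin receptor gene MTNR1A from 0 to 41.5 CPM.

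All 207 members had a count in at least 1 sample and 176 had a count in every sample. A low-count filter, over 1 CPM in as many samples as the smaller group, left 195 members tested in every comparison and 5 in none (LECT2, TRPC5, MEOX2, MYOZ1 and PAQR5). The question was which members moved, when, and with which others. Comparisons between LP days hold no SP sample and were not used to choose the members, although LP samples stood on one side of the comparisons that chose part of them. Each gene was tested with edgeR's quasi-likelihood test and Benjamini-Hochberg adjustment over all genes tested (FDR), and a gene is called at an FDR under 0.05.

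Between LP day 1 and LP day 28, 7 of the 201 members tested were called, against 0.216% of all 14820 genes tested. TSHB, GPLD1, GNPTAB, SPOCK2 and ANGPTL2 rose, where 0.175% of all genes were called higher, and SSC5D and PTPRO fell, where 0.0405% were called lower. An unadjusted p under 0.05 was found for 46 members, where 8.0% of all genes reached it. All 7 are among the members listed for these samples, of which 79 were tested. Of the 122 tested members not listed for these samples, edgeR called 0 and DESeq2 0, and 18 had an unadjusted p under 0.05 (14.8%). LP samples stood on one side of the comparisons behind that listing, so the share called over all members is not independent of it. The median log2 difference was 0.03 over the members and -8.3e-05 over all genes, so the members as a class had not shifted in 1 direction. The groups did not overlap for 7 members, against 0.526% of all genes. TSHB, GPLD1, GNPTAB, SPOCK2 and the lysosomal glucosidase GAA lay higher at LP day 28 (0.331% of all genes), and SSC5D and PTPRO lower (0.196%). GAA was not called (FDR = 0.135). With LP day 1 samples 3 and 4 summed, 6 of the 7 calls held.

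**Figure D1:**
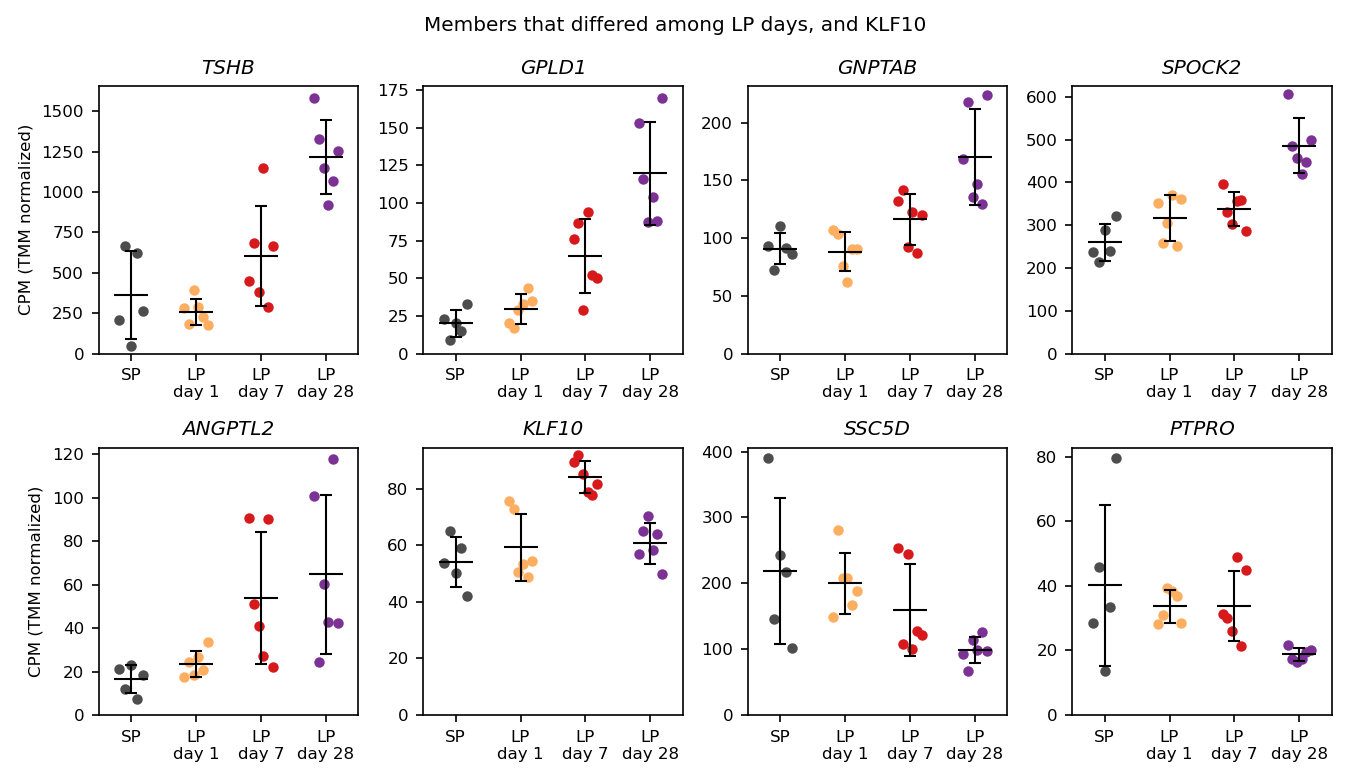
Normalised CPM of 8 members by sample (points), with group means (long bars) and SD (whiskers), for SP (n = 5) and LP days 1, 7 and 28 (n = 6 each). TSHB, GPLD1, GNPTAB and SPOCK2 lie highest at LP day 28, KLF10 at LP day 7, and SSC5D and PTPRO are lowest at LP day 28, where the LP day 28 samples of PTPRO span 16.5 to 21.7 CPM.

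Of the pituitary hormones, TSHB (ENSOARG00000020127) gave the largest of these differences. SP samples 1 to 5 stood at 207, 664, 47.0, 626 and 265 CPM. LP day 1 samples had a lowest, median and highest of 174, 253 and 394 CPM, LP day 7 samples of 289, 559 and 1151 CPM, and LP day 28 samples of 921, 1204 and 1580 CPM. Every LP day 28 sample lay above every SP and every LP day 1 sample, while LP day 7 overlapped all 3 other groups and the SP samples spread more widely than those of LP day 1. TSHB rose 2.25 ± 0.18 (log2, SE) from LP day 1 to LP day 28 (edgeR, FDR = 5.51e-07), and the joint test over the 3 LP days gave an FDR of 0.000158. The steps in between, 1.23 ± 0.28 from LP day 1 to day 7 and 1.02 ± 0.24 from LP day 7 to day 28, were not called (edgeR, FDR = 0.374 and 0.244). Against SP, TSHB at LP day 28 was 1.75 ± 0.41 higher on the log2 scale (edgeR, FDR = 0.0615).

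PRL, prolactin of the pars distalis lactotrophs, overlapped between all groups. SP samples ran from 25237 to 112650 CPM, LP day 1 from 25231 to 213050 CPM, LP day 7 from 21521 to 145720 CPM and LP day 28 from 46937 to 242620 CPM. The highest single sample was at LP day 28 and the lowest at LP day 7, and LP day 28 against LP day 1 differed by 0.96 ± 0.46 on the log2 scale (edgeR, FDR = 0.622). LHB, the beta subunit of luteinising hormone, had medians of 4690, 4739, 2873 and 3788 CPM in SP and at LP days 1, 7 and 28, and no comparison called it. The summed level of 8 pars distalis markers, PRL and LHB among them, had a median of 125230 CPM in SP and of 64506, 95689 and 177120 CPM at LP days 1, 7 and 28. The paper also describes TSHβ protein in thyrotrophs of the pars distalis. The part of pars distalis tissue in the TSHB values was not tested.

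The call that stood in most comparisons was GPLD1 (ENSOARG00000006871), a phospholipase that releases GPI-anchored proteins from the cell surface. SP samples 1 to 5 stood at 23.04, 8.80, 20.5, 14.9 and 32.7 CPM. LP day 1 samples ran from 16.9 to 43.3 CPM (median 30.7), LP day 7 samples from 29.2 to 93.7 CPM (median 64.1) and LP day 28 samples from 87.0 to 170 CPM (median 110). LP day 28 lay above all SP and LP day 1 samples, and LP day 7 sample 3 was the sample of its day that fell among the SP values. GPLD1 rose 2.06 ± 0.22 (log2) from LP day 1 to LP day 28 (edgeR, FDR = 3.77e-05) and was called in the joint test of LP days (FDR = 0.000595). GPLD1 is listed for these samples and, as 1 of the 90, for the other experiment. It was thus not chosen by these samples alone. It rose 2.56 ± 0.25 from SP to LP day 28 (edgeR, FDR = 3.63e-05) and 1.67 ± 0.31 from SP to LP day 7 (edgeR, FDR = 0.0379). With 1 sample left out the rise from SP to LP day 7 lay between 1.49 and 1.91. Its call was lost when any of SP samples 1, 2, 3 and 4 or LP day 7 samples 1, 2, 4 and 5 was left out, with FDRs from 0.0534 to 0.101.

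GNPTAB (ENSOARG00000015343) encodes the enzyme that tags lysosomal hydrolases with mannose 6-phosphate. SP samples 1 to 5 stood at 93.2, 72.8, 111, 91.1 and 86.6 CPM, LP day 1 samples between 62.3 and 107 CPM (median 90.3), LP day 7 samples between 87.1 and 142 CPM (median 121) and LP day 28 samples between 130 and 224 CPM (median 158). All LP day 28 samples were above those of SP and LP day 1. The rise was 0.91 ± 0.15 from LP day 1 to LP day 28 (edgeR, FDR = 0.00671) and 0.90 ± 0.15 from SP to LP day 28 (FDR = 0.00781), both on the log2 scale.

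SPOCK2 (ENSOARG00000007029), a matrix proteoglycan also called testican 2, was the single member with every LP day 28 sample above all 17 other samples, a pattern held by 0.0319% of all 15653 genes examined. SP samples 1 to 5 stood at 238, 213, 288, 241 and 321 CPM, LP day 1 between 250 and 371 CPM (median 328), LP day 7 between 287 and 396 CPM (median 343) and LP day 28 between 419 and 606 CPM (median 471). The log2 rise was 0.90 ± 0.12 from SP to LP day 28 (edgeR, FDR = 0.000718) and 0.63 ± 0.12 from LP day 1 (FDR = 0.0245). From LP day 7 to LP day 28 it was 0.53 ± 0.10 (FDR = 0.0632). The call against LP day 1 was lost without LP day 1 sample 3 (FDR = 0.0707) and without LP day 28 sample 1 or 6 (FDR = 0.0896 and 0.0657), and it was also lost with total counts in place of TMM (FDR = 0.285).

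ANGPTL2 (ENSOARG00000012521), a secreted angiopoietin-like glycoprotein, had low values and a wide LP day 28 spread. SP samples 1 to 5 stood at 21.2, 12.2, 23.1, 7.45 and 18.6 CPM, and LP day 1 samples between 17.6 and 33.5 CPM (median 22.6). LP day 7 samples ran from 22.3 to 90.8 CPM (median 46.1) and LP day 28 samples from 24.6 to 118 CPM (median 51.5). LP day 28 sample 2 lay among the LP day 1 values. The log2 difference was 1.95 ± 0.36 from SP to LP day 28 (edgeR, FDR = 0.0134) and 1.504 ± 0.30 from LP day 1 (FDR = 0.0388). The latter call was lost under 5 other settings, with FDRs from 0.0519 to 0.106, and without any of LP day 1 samples 1, 3, 4 and 5 or LP day 28 samples 1, 3 and 5 (FDRs from 0.0729 to 0.131). The former was lost without SP sample 2 (FDR = 0.0574) and with SP samples 2, 3 and 5 alone (FDR = 0.0721).

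The members that fell across LPs were SSC5D (ENSOARG00000001268), a soluble scavenger receptor of immune cells, and PTPRO (ENSOARG00000020651), a receptor-type tyrosine phosphatase. SSC5D SP samples 1 to 5 stood at 390, 145, 242, 218 and 101 CPM. LP day 1 ran from 149 to 281 CPM (median 198), LP day 7 from 100 to 254 CPM (median 125) and LP day 28 from 66.7 to 126 CPM (median 97.5). LP day 28 lay wholly below LP day 1, but the lowest SP sample was within the LP day 28 range. SSC5D fell by 1.01 ± 0.16 on the log2 scale from LP day 1 to LP day 28 (edgeR, FDR = 0.00292). It is listed for these samples and not in the list held for the other experiment, so these samples took part in its selection. As a description, SSC5D was 1.16 ± 0.25 lower at LP day 28 than in SP (log2, edgeR, FDR = 0.0421). That call was lost in 8 of 11 fits with 1 sample left out (FDRs from 0.0646 to 0.102). It was also lost with the replicate block, sample number as a factor (FDR = 0.165), and with SP samples 2, 3 and 5 alone (FDR = 0.180).

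PTPRO SP samples 1 to 5 stood at 28.6, 45.7, 13.6, 33.4 and 79.6 CPM. LP day 1 ran from 28.3 to 39.3 CPM (median 33.9), LP day 7 from 21.4 to 48.9 CPM (median 30.7) and LP day 28 from 16.5 to 21.7 CPM (median 18.4). The SP samples covered the values of every LP day, and LP day 28 had the narrowest spread. PTPRO fell by 0.82 ± 0.15 on the log2 scale from LP day 1 (edgeR, FDR = 0.0191). With all 4 groups in 1 fit the FDR was 0.306 for PTPRO and 0.140 for SSC5D. PTPRO was also lost without LP day 1 sample 3 (FDR = 0.0762) or LP day 28 sample 3 (FDR = 0.0551).

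The joint test of the 3 LP days called 4 of 202 members, TSHB, GPLD1, SPOCK2 and GNPTAB, against 0.209% of all genes, and 50 members had an unadjusted p under 0.05, against 7.65%. All 4 are among the 80 tested members listed for these samples, and edgeR called 0 of the 122 not listed, of which 14 had an unadjusted p under 0.05 and DESeq2 called 1 (KLF10). SPOCK2 was lost from it without LP day 28 sample 1 (FDR = 0.0621) and with total counts in place of TMM (FDR = 0.295). GNPTAB was lost without LP day 28 sample 6 (FDR = 0.0587) and with total counts (FDR = 0.0712). For LP day 1 against LP day 7, edgeR called 0 of 200 members, where 0.0201% of all genes were called. An unadjusted p under 0.05 was found for 25 members and for 5.56% of all genes, and DESeq2 called 1, GPLD1, beside 12 of all 14897 genes. For LP day 7 against LP day 28, edgeR called 0 of 199, where 0.00672% of all genes were called. Of the members, 48 had an unadjusted p under 0.05, against 7.13% of all genes, and DESeq2 called 3 (SPOCK2, KLF10 and PTPRO), beside 37 of all 14890 genes.

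Comparisons with SP helped to choose the members, so their counts are given as a description. For SP against LP day 1, edgeR called 0 of 198 members and 0.0% of all genes. An unadjusted p under 0.05 was found for 19 members (9.6%), against 3.33% of all genes. DESeq2 called 0 members, beside 2 of all 14920 genes, and the groups overlapped for every member (0.221% of all genes did not). For SP against LP day 7, 2 of 201 were called (GPLD1 and KLF10), beside 0.266% of all genes, and 6 did not overlap, beside 2.04%. For SP against LP day 28, 9 of 202 were called, beside 0.67%. Of these, 7 were higher at LP day 28, beside 0.422% of all genes, and 2 lower, beside 0.248%. The groups did not overlap for 14 members, beside 1.98%. The 9 called were GPLD1, SPOCK2, GNPTAB, ANGPTL2, SSC5D, SERPINE2, SPRY3, SCEL and APOE, of which SSC5D and APOE were lower. Nothing is read from these counts.

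The list held for the other experiment is shortened, so the 90 members it names are only a part of those that experiment chose. These 90 are named by the other experiment whatever these samples showed, but the category table joined DE genes of both experiments. They were chosen as DE there, so the all-gene shares given beside theirs are an unselected reference. Other genes listed there were not compared, so nothing follows about developmental genes as a class. Of the 90, 88 were tested for SP against LP day 1 and 0 were called (edgeR, with 4 at an unadjusted p under 0.05, and 0 by DESeq2). The calls were 1 of 88 (GPLD1) for LP day 7 and 5 of 89 for LP day 28. The last is 5.62% of those tested, against 0.67% of all genes. All 5 rose (GPLD1, SPOCK2, GNPTAB, ANGPTL2 and SERPINE2), and all 5 are also among the members listed for these samples. An unadjusted p under 0.05 was found for 4.55%, 21.6% and 37.1% of them at LP days 1, 7 and 28, where all genes gave 3.33%, 14.4% and 13.8%. The median log2 difference at LP day 28 was 0.14 over these members and -0.01 over all genes.

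SERPINE2, a matrix-bound serine protease inhibitor, stood at 154, 141, 204, 219 and 214 CPM in SP samples 1 to 5 and between 228 and 455 CPM at LP day 28 (median 306). LP day 28 lay above SP in every sample, but LP day 1 ran from 125 to 422 CPM and covered nearly the whole range. The rise from SP to LP day 28 was 0.78 ± 0.16 on the log2 scale (edgeR, FDR = 0.0308). It was lost under 4 other settings (FDRs from 0.0539 to 0.129) and without SP sample 1 or 2 or LP day 28 sample 4, 5 or 6 (FDRs from 0.0504 to 0.0902).

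SPRY3, a Sprouty inhibitor of receptor tyrosine kinase signalling, and SCEL, a protein of the cornified envelope, rested on few reads. SPRY3, SCEL and APOE are listed for these samples and not in the list held for the other experiment. These samples thus took part in their selection, and their FDRs against SP are a description. SP samples held 1 to 4 counts of SPRY3 and 1 to 5 counts of SCEL, and LP day 28 samples 5 to 33 and 7 to 17. At LP day 28 SPRY3 ran from 1.95 to 7.62 CPM and SCEL from 3.13 to 6.63 CPM. The call of SPRY3 was lost with the replicate block (FDR = 0.107), with SP samples 2, 3 and 5 alone (FDR = 0.136) and without SP sample 1, 2 or 4 or LP day 28 sample 1 (FDRs from 0.0564 to 0.0902). That of SCEL was lost without any 1 of the 11 samples (FDRs from 0.0504 to 0.125), with the replicate block (FDR = 0.192), with GH1 as a covariate (FDR = 0.0546) and with SP samples 2, 3 and 5 alone (FDR = 0.127). APOE, the lipid carrier made by glia, stood at 516, 589, 600, 288 and 551 CPM in SP samples 1 to 5 and between 247 and 338 CPM at LP day 28. SP sample 4 lay within the LP day 28 range and the other SP samples above it. Its LP day 28 level was 0.81 ± 0.15 lower on the log2 scale than in SP (edgeR, FDR = 0.0168), and LP day 1, at 201 to 744 CPM, overlapped both. The call of APOE was lost with all groups in 1 fit (FDR = 0.0946), with the replicate block (FDR = 0.124) and without SP sample 2 or LP day 28 sample 3 or 6 (FDRs from 0.0503 to 0.0629).

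A different time course was held by KLF10 (ENSOARG00000017131), a TGF-beta-inducible zinc finger factor. SP samples 1 to 5 stood at 53.8, 65.0, 50.2, 59.0 and 42.0 CPM. LP day 1 ran from 48.8 to 75.6 CPM (median 53.8), LP day 7 from 77.6 to 92.0 CPM (median 83.4) and LP day 28 from 49.9 to 70.2 CPM (median 61.1). All 6 LP day 7 samples lay above the 17 other samples, which 0.0383% of all genes did. Its 1 call, 0.64 ± 0.11 from SP to LP day 7 on the log2 scale (edgeR, FDR = 0.0314), was lost without SP sample 1 or 4 or any of LP day 7 samples 1 to 5 (FDRs from 0.0517 to 0.0943) and with SP samples 2, 3 and 5 alone (FDR = 0.120). In LP day 1 against LP day 7 it was the 1 member with no overlap (0.269% of all genes). LP day 7 was 0.48 ± 0.12 higher on the log2 scale than LP day 1 (edgeR, FDR = 0.487), and LP day 28 was 0.46 ± 0.09 lower than LP day 7 (FDR = 0.126), so neither step was called. The joint test of LP days gave an FDR of 0.107. In LP day 7 against LP day 28 the groups did not overlap for 3 members (0.363% of all genes), KLF10, SPOCK2 and SCRG1, a small secreted protein of neural and mesenchymal cells with medians of 9.06 and 5.01 CPM on these days.

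The 22 extracellular matrix members were mostly higher at LP day 28. Fibrillar collagens and fibronectin form the scaffold that cells attach to, and proteoglycans and protease inhibitors set its turnover. From LP day 1 to LP day 28, 15 were higher and 7 lower with a median log2 difference of 0.24, and from LP day 7 to LP day 28, 17 were higher and 5 lower with a median of 0.24. The median over all genes was under 0.001 in size in both. With total counts in place of TMM, 14 and 17 were higher, with medians of 0.15 and 0.11 and all-gene medians of -0.09 and -0.12. With TMM, SPOCK2 was the 1 matrix member called by edgeR from LP day 1 to LP day 28. From LP day 7 to LP day 28 edgeR called 0 of the 22 and DESeq2 called SPOCK2. An unadjusted p under 0.05 was found for 7 and 10 of the 22, against 8.0% and 7.13% of all genes. LP samples stood on one side of the comparisons that chose part of the members, so this lean is not independent of the selection. Between LP day 1 and day 7, 11 were higher and 11 lower.

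Among the matrix members, COL1A1 had a median of 385 CPM in SP and of 455, 482 and 603 CPM at LP days 1, 7 and 28. COL1A2 had medians of 579, 662, 694 and 801 CPM. LP day 28 against LP day 1 was 0.46 ± 0.12 for COL1A1 and 0.25 ± 0.11 for COL1A2 on the log2 scale (edgeR, FDR = 0.213 and 0.593). COL5A2, a minor fibrillar collagen, ran from 157 to 458 CPM at LP day 28 and from 74.2 to 296 CPM at LP day 1. Its deviations from the group means correlated with those of PRL at 0.80 and of SIX6 at 0.72. The summed pars distalis markers had medians of 64506 and 177120 CPM at LP days 1 and 28, and their part in the COL5A2 values was not tested. At the other end MGP, an inhibitor of calcification, had medians of 135, 125 and 104 CPM at LP days 1, 7 and 28. Just outside the threshold for SP against LP day 28 stood COL5A2 and THBS1, both at an FDR of 0.0503, and just inside it SCEL at 0.0458.

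**Figure D2:**
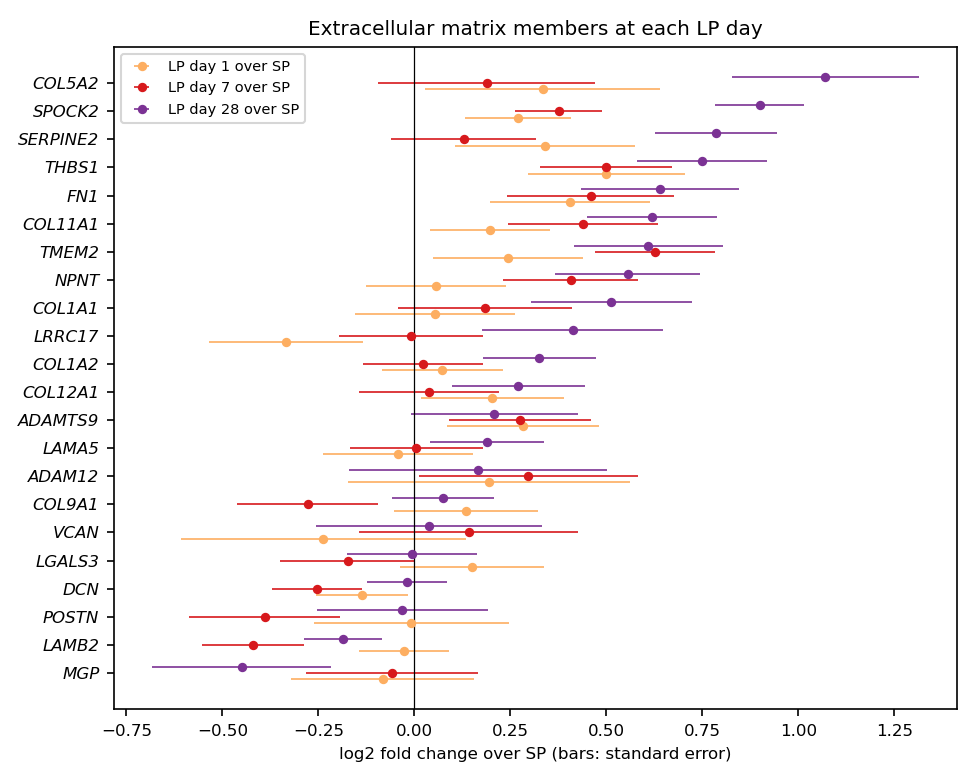
Log2 fold change of each of the 22 extracellular matrix members over SP at LP day 1, LP day 7 and LP day 28 (points, with SE as bars), ordered by the value at LP day 28. At LP day 28, 17 points lie above 0 and 5 below, from COL5A2 at 1.07 to MGP at -0.45. Comparisons with SP helped to choose members, so the values are a description.

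The summed level of 5 fibroblast markers (COL1A1, COL1A2, COL3A1, DCN and LUM) moved with the matrix members. It ran from 1507 to 2656 CPM in SP (median 1823), from 1686 to 2198 CPM at LP day 1 (median 1968), from 1449 to 2436 CPM at LP day 7 (median 1980) and from 2069 to 2940 CPM at LP day 28 (median 2376). None of these markers was at 0. From LP day 1 to LP day 28 edgeR called 0 of the 5, and 3 had an unadjusted p under 0.05, against 8.0% of all genes. Their part in the matrix result was not tested. COL1A1, COL1A2 and DCN are themselves members, and DCN, the small proteoglycan decorin, had medians of 320 CPM in SP and 305, 296 and 328 CPM at the LP days.

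**Figure D3:**
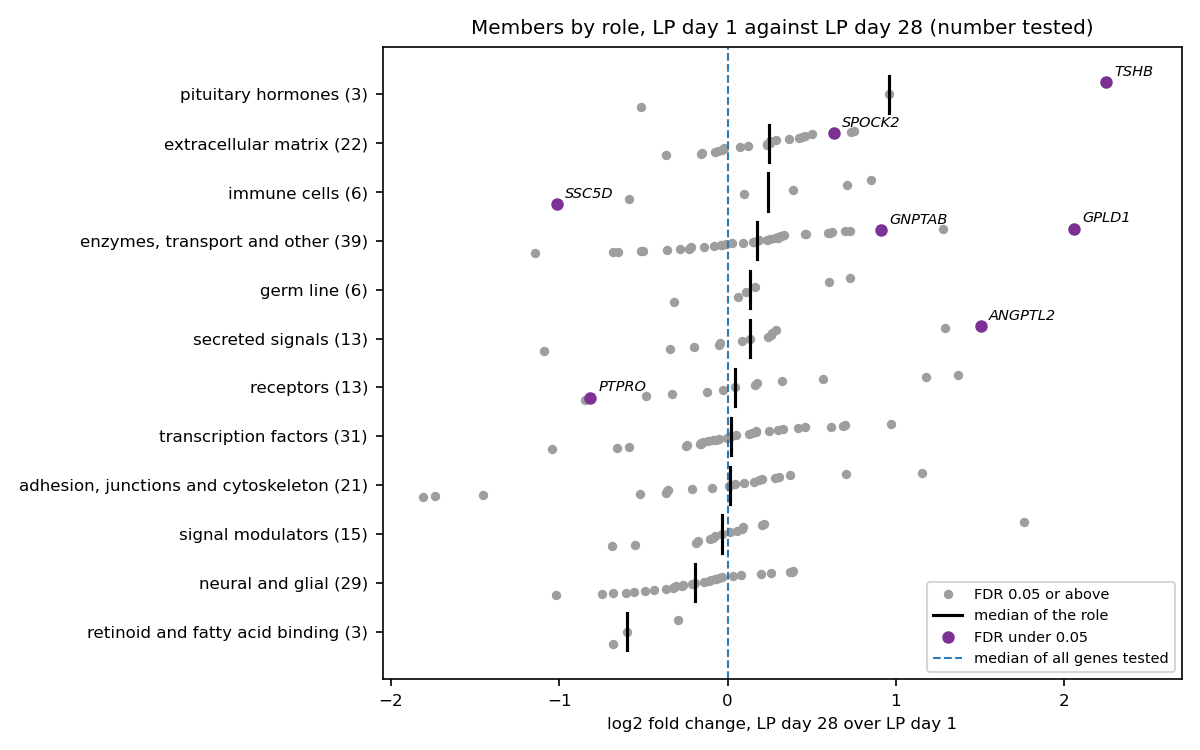
Log2 fold change of LP day 28 over LP day 1 for each tested member, by role (1 point a member, with height within a row only to separate points), with the median of each role as a bar and the median of all genes as the dashed line. The 7 called members are named, from TSHB at 2.25 to SSC5D at -1.01, and the role medians run from 0.96 for the 3 hormones to -0.60 for the 3 binding proteins.

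Neural and glial members leaned the other way. Of 29 tested, 22 were lower and 7 higher at LP day 28 than at LP day 1 (median log2 difference -0.19), and 23 were lower and 6 higher than at LP day 7 (median -0.22). With the growth hormone level of each sample as a covariate the first count was 19 lower with a median of -0.09. None was called by edgeR among LP days. An unadjusted p under 0.05 was found for 5 of them in each comparison, against 8.0% and 7.13% of all genes. DESeq2 called 0 of them among LP days. As for the matrix members, LP samples stood on one side of the comparisons behind part of the selection. NNAT, a small membrane protein of developing brain and endocrine cells, was among the 7 that were higher, together with the calmodulin-binding protein PCP4, and had medians of 1727, 1888 and 2316 CPM at LP days 1, 7 and 28. APOD, a lipocalin of glia, had medians of 701, 824 and 692 CPM.

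These members also varied together between samples of 1 group. Over the 145 members with a mean above 10 CPM, deviations of log2(CPM + 1) from the group means were correlated across all 23 samples, which share a library for every pair of genes. The median correlation over all pairs was 0.03, with 5% of pairs below -0.43 and 5% above 0.54. Among 24 neural and glial members (276 pairs) it was 0.30, the highest of the 12 roles. With GFAP, the intermediate filament of astrocytes and folliculostellate cells, the correlation was 0.94 for ALDOC, 0.92 for APBA2, 0.90 for ELAVL3, 0.90 for MBP, 0.89 for S100B, 0.88 for ACHE and 0.87 for CARTPT. These were chosen as the members with high values, and ALDOC and CARTPT belong to other roles. Of the neural and glial members, CELF3 had 0.03, PCP4 -0.10, FGF12 -0.10 and NNAT -0.58. ALDOC, a brain aldolase, MBP, a myelin protein, ELAVL3, a neuronal RNA-binding protein, and CARTPT, a hypothalamic neuropeptide, mark several cell types.

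GFAP stood at 97.7, 243, 623, 208 and 476 CPM in SP samples 1 to 5. At LP day 1 it ran from 47.8 in sample 2 to 832 CPM in sample 5, at LP day 7 from 131 to 534 CPM and at LP day 28 from 190 to 416 CPM. MBP ran from 13.1 to 272 CPM at LP day 1 with the same samples lowest and highest, and CARTPT from 6.25 to 185 CPM. Samples within a group thus differed in these members by more than the groups did. The summed oligodendrocyte and Schwann cell markers that could be paired (MBP and SOX10, 2 of 6) ran from 14.8 to 284 CPM at LP day 1, and from 24.2 to 67.7 CPM at LP day 28. The neuron markers that could be paired (MAPT, ELAVL3 and STMN2, 3 of 7) summed to between 171 and 433 CPM at LP day 1 and between 163 and 296 CPM at LP day 28. The summed folliculostellate markers (S100B, VIM, GFAP and FXYD1, 4 of 5) ran from 733 to 2031 CPM at LP day 1 and from 1043 to 1362 CPM at LP day 28. Their part in the neural and glial values was not tested.

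**Figure D4:**
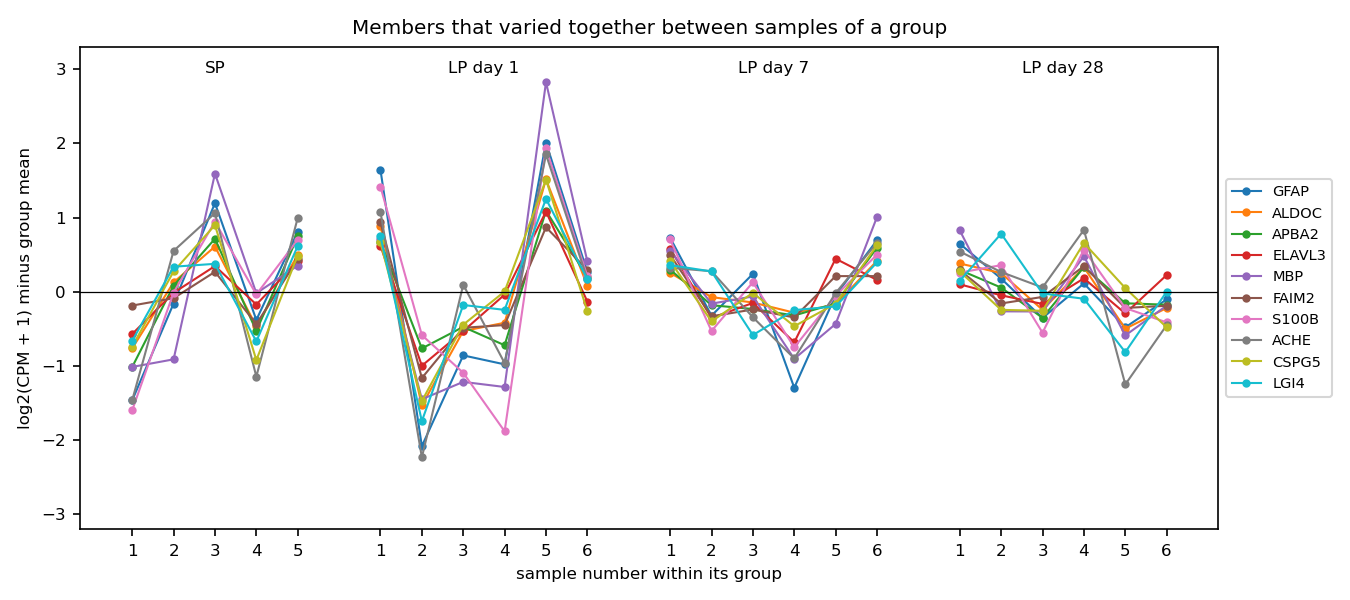
Deviation of log2(CPM + 1) from the group mean for 10 members across the 23 samples, 1 line a member, ordered by sample number within each group. In LP day 1, samples 1 and 5 lie above and sample 2 below the mean for all 10, and the deviations at LP day 28 are smaller than at LP day 1.

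The retinoid and fatty acid binding proteins carry retinoic acid and fatty acids within cells. CRABP1, CRABP2 and FABP5 were all lower at LP day 28 than at LP day 1 (median log2 difference -0.60), and none was called between LP days by edgeR or by DESeq2. FABP5 had an unadjusted p under 0.05 for these days. CRABP2 stood at 28.6, 30.1, 30.3, 14.6 and 35.6 CPM in SP samples 1 to 5, and its median was 20.4, 11.4 and 16.1 CPM at LP days 1, 7 and 28. CRABP1 ran from 9.72 to 36.1 CPM in SP and from 7.26 to 29.6 CPM at LP day 28. FABP5 had medians of 29.5 CPM in SP and 23.8, 20.7 and 20.1 CPM at the LP days. The ranges of each gene overlapped between SP and LP day 28. Within groups, CRABP1 correlated with GFAP at 0.77, FABP5 at 0.76 and CRABP2 at -0.11, and the part of GFAP-expressing cells in these values was not tested.

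Of the transcription factors, 31 of 32 were tested between LP day 1 and LP day 28. They split evenly, 17 higher and 14 lower with a median of 0.02, and 0 were called by edgeR. An unadjusted p under 0.05 was found for 4 (12.9%), against 8.0% of all genes. SIX2, a homeobox factor of progenitor cells, had medians of 302 CPM in SP and 344, 412 and 495 CPM at the LP days, a log2 difference of 0.69 ± 0.22 from LP day 1 to LP day 28 (edgeR, FDR = 0.374). AEBP1, which is abundant in mesenchymal cells, had medians of 434, 342, 325 and 363 CPM, and the LIM-domain cofactor LDB1 of 167, 168, 175 and 184 CPM.

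The immediate early genes are those that cells induce within minutes of a stimulus. EGR1 had a median of 90.1 CPM in SP and 120, 119 and 101 CPM at the LP days. NR4A2, a nuclear orphan receptor, had medians of 29.9, 36.6, 29.9 and 31.0 CPM, and the stress-response gene IER3 of 8.74, 8.86, 7.67 and 7.75 CPM. No LP day comparison called any of them. Of the 25 immediate early genes in the pathway list, 8 could be paired and tested, and KLF10 (SP against LP day 7) was the 1 call. The median log2 difference of the 8 was 0.30, 0.35 and 0.23 over SP at LP days 1, 7 and 28, with 3, 2 and 1 of them at an unadjusted p under 0.05 (all-gene medians 0.0018, -0.0070 and -0.0066), and was -0.0047 from LP day 1 to LP day 28. Of all genes, 3.33%, 14.4% and 13.8% had such a p in these comparisons with SP, which are a description.

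NR1D1, the repressor REV-ERB alpha that couples the clock to transcription, and NAB2, a corepressor of EGR factors, followed the sample number within LP days 7 and 28. NR1D1 stood at 458, 67.7, 257, 84.8, 298 and 77.9 CPM in LP day 7 samples 1 to 6, and NAB2 at 172, 57.0, 133, 43.8, 156 and 55.9 CPM. In both, samples 1, 3 and 5 lay above samples 2, 4 and 6. At LP day 28 the order was the same, with NR1D1 at 128, 73.6, 107, 102, 277 and 86.1 CPM. Of 204 members examined, samples 1, 3 and 5 all exceeded samples 2, 4 and 6 on both days in 8, among them NR1D1, NAB2, ETV5 and ZBTB7B, against 1.25% of all genes, and lay all below them in 1 (PTPRR), against 0.824%. The labels do not say what a sample number stands for, and NR1D1 and NAB2 correlated at 0.88 within groups. ANGPTL2, not among the 8, correlated with NR1D1 and with ETV5 at 0.72 each within groups. With odd or even sample number as a covariate its call from LP day 1 to LP day 28 was lost (edgeR, FDR = 0.0519). NR1D1 was not called between LP day 1 and LP day 7 (1.01 ± 0.40 on the log2 scale, edgeR, FDR = 0.882).

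**Figure D5:**
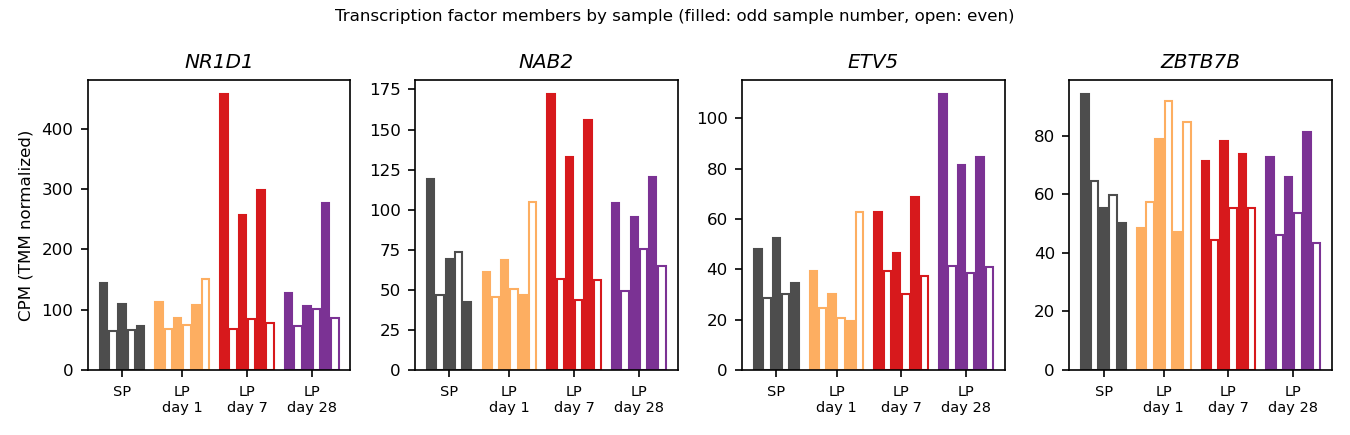
Normalised CPM of NR1D1, NAB2, ETV5 and ZBTB7B in each sample, in sample order within SP and LP days 1, 7 and 28 (filled bars are odd and open bars even sample numbers). In LP days 7 and 28 every filled bar is taller than every open bar of its group, as for NR1D1 at LP day 7 with 257 to 458 CPM against 67.7 to 84.8 CPM.

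Of the secreted signals, 8 were higher and 5 lower at LP day 28 than at LP day 1 (median 0.13), and ANGPTL2 was the 1 call. SEMA3B, an axon guidance cue, had medians of 96.5 CPM in SP and 94.3, 73.5 and 78.8 CPM at the LP days. PTN, the heparin-binding growth factor pleiotrophin, stayed between medians of 36.9 and 40.6 CPM. CARTPT had medians of 74.8 CPM in SP and 56.6, 66.6 and 36.3 CPM at the LP days. Signal modulators were split 7 higher to 8 lower (median -0.03) with 0 calls by edgeR among LP days. From LP day 1 to LP day 28, 1 of them had an unadjusted p under 0.05, against 8.0% of all genes. The Wnt antagonist SFRP4 had medians of 26.0, 37.7, 34.6 and 40.4 CPM from SP to LP day 28, the Notch-modifying glycosyltransferase MFNG of 34.3, 37.5, 46.3 and 39.2 CPM, and the endocytic adaptor DAB2 of 31.5, 43.0, 38.7 and 44.3 CPM.

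Receptors were split 7 higher to 6 lower from LP day 1 to LP day 28 (median 0.04, from -0.85 to 1.37). PTPRO was the 1 call by edgeR, and 5 of 13 had an unadjusted p under 0.05, against 8.0% of all genes. The thrombin receptor F2R ran from 69.0 to 131 CPM over LP day 28 samples and from 70.7 to 123 CPM over those of LP day 1. GPR124, which guides brain vessel growth, ran from 70.2 to 98.4 CPM and from 37.1 to 89.6 CPM. IL11RA, the receptor for interleukin 11, was the member with the smallest spread within groups of the 145, an SD of 0.14 on the log2 scale, and its medians lay between 188 and 218 CPM. CARTPT had the largest, 1.40.

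Among adhesion and cytoskeletal members, the epithelial adhesion protein EPCAM had medians of 270, 232, 254 and 300 CPM in SP and at LP days 1, 7 and 28, the neural adhesion protein L1CAM of 402, 431, 438 and 383 CPM, and VIM of 1022, 1040, 720 and 843 CPM. VIM, the intermediate filament of mesenchymal and folliculostellate cells, was 0.48 ± 0.14 lower on the log2 scale at LP day 7 than at LP day 1, with an FDR of 0.738. Of the remaining abundant enzymes and transporters, the Golgi calcium pump ATP2C1 had medians of 281, 251, 297 and 304 CPM, and PSD, an exchange factor for ARF6, of 311, 326, 316 and 275 CPM.

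Immune members were few. PTPRC, the leukocyte antigen CD45, ran from 8.80 to 91.7 CPM in SP, from 17.8 to 25.9 CPM at LP day 1, and from 21.3 to 87.6 CPM at LP day 28. SRGN, a proteoglycan of immune cell granules, had medians of 14.3, 12.2, 13.1 and 15.6 CPM. RSAD2, an antiviral gene induced by interferon, reached 104 CPM in LP day 7 sample 3 and 11.2 CPM in SP sample 3, while the 21 other samples held 3.04 CPM or less. Of the 5 immune markers, PTPRC and CD4 could be paired, and of the 6 endothelial and mural markers, none could. The sum of PTPRC and CD4 ran from 17.3 to 119 CPM in SP and from 26.9 to 35.6 CPM at LP day 1. It ran from 26.5 to 81.6 CPM at LP day 7 and from 39.015 to 108 CPM at LP day 28. LP day 28 thus lay wholly above LP day 1, while SP overlapped both. From LP day 1 to LP day 28 PTPRC rose 0.85 ± 0.26 and CD4 0.71 ± 0.25 on the log2 scale. Both had an unadjusted p under 0.05, but neither was called (edgeR, FDR = 0.318 and 0.421). SSC5D fell between the same days.

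All 6 germ-line members were higher at LP day 7 and at LP day 28 than in SP (median log2 differences 0.53 and 0.43), a description, since such comparisons chose members. From LP day 1 to LP day 28, 5 were higher and 1 lower (median 0.13), and none was called by edgeR or by DESeq2. An unadjusted p under 0.05 was found for 1, against 8.0% of all genes. The histone methyltransferase SUV39H2 had medians of 11.7, 13.4, 16.8 and 19.9 CPM from SP to LP day 28, the testis-type linker histone HIST1H1T of 12.98, 16.5, 15.0 and 15.1 CPM, and DPY19L2, needed for the sperm acrosome, of 12.3, 14.7, 17.4 and 15.1 CPM.

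Genes of developmental pathways could be followed only where the study's tables pair a symbol with a gene. Every gene counted is thus one that the study listed. Many are members themselves, all 3 Notch genes (LFNG, MFNG and CHAC1) among them, so these counts are no separate check on the members. Of the Wnt list, 10 of 60 genes could be paired, of the Notch list 3 of 29, of the TGF-beta, activin and BMP list 6 of 42, of the retinoic acid list 5 of 21 and of the fibrillar collagen and matrix list 12 of 24. No gene of these 5 lists was called by edgeR in any of the 7 comparisons. From LP day 1 to LP day 28 an unadjusted p under 0.05 was found for 0 Wnt and 0 Notch genes, 1 TGF-beta gene, 1 retinoic acid gene and 4 matrix genes. Of all genes, 8.0% had such a p. From LP day 1 to LP day 28 the medians were -0.08 for Wnt (9 tested), -0.09 for Notch, 0.18 for TGF-beta, -0.30 for retinoic acid and 0.24 for matrix, on the log2 scale.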

How the data were processed

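RNA was taken from the PT of 23 castrate male sheep samples and sequenced. The authors deposited raw read counts per Ensembl gene on Oar_v3.1, 1 file per sample. Bowtie and HTSeq are named in their notes, and versions are not given in the sources used here. The file headers have the form that featureCounts gives, so the counting program is not settled. Symbols come only from the study's tables, which pair 1259 genes. Groups follow the labels.

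Counts were tested with edgeR 4.0.16 in R 4.3.3 (TMM, quasi-likelihood, genes over 1 CPM in as many samples as the smaller group), the 2 groups of each comparison entering alone and the 18 LP samples in the joint test, at an FDR of 0.05 over all genes. The step was tested on simulated data. Alternatives were DESeq2 1.42.0, other scalings, no filter, 1 fit of all groups, covariates and leaving out samples. Named members were those called, the most counted of each role, the 5 with the largest F among LP days, and set hormone and early response genes. Members and lists were chosen with earlier results of these data known. The list of DE genes held here is shortened for the other experiment, and no overlap with it was tested.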

Additional observations from a re-analysis of the deposited data

Results flagged for a closer look

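The change over SP differed between LP day 1 and LP day 28 for 7 members, by the edgeR test of those days against each other. The log2 difference was 2.25 for TSHB, 2.06 for GPLD1, 1.504 for ANGPTL2, 0.91 for GNPTAB and 0.63 for SPOCK2. It was -1.01 for SSC5D and -0.82 for PTPRO. Their values in each group stand in the report.

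Among 48 groups of 12 called members, 2 held a sample far from the rest by Dixon's criterion, which chance meets in about 1 of 20 groups. APOE was at 288 CPM in SP sample 4, the lowest of its group. SPRY3 was at 7.62 CPM in LP day 28 sample 1, the highest of its group.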

How the results depend on the processing

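For SP against LP day 7, where 2 members were called, DESeq2 called 15, no filter 4, all groups in 1 fit 6, the replicate block 10, odd or even sample number as a covariate 15, the GH1 level as a covariate 5, and SP samples 2, 3 and 5 alone 1. Calls over all genes, 40 as reported, were 350, 50, 62, 178, 334, 71 and 6 in the same order. For SP against LP day 28 (9 called), these were 22 by DESeq2, 4 with the block, 17 with the odd or even number and 5 with SP samples 2, 3 and 5, beside 347, 41, 154 and 48 of all genes (100 as reported). LP day 1 against LP day 7 (0) gave 1 by DESeq2, beside 12 of all genes. LP day 7 against LP day 28 (0) gave 3 by DESeq2, beside 37 of all genes. It gave 1 each by library size, no filter, odd or even number and GH1, beside 6, 8, 10 and 3 of all genes. LP day 1 against LP day 28 (7) gave 4 with all groups in 1 fit, beside 31 of all genes. The joint test (4) gave 8 by DESeq2, beside 73 of all genes. Among members listed for the other experiment, SP against LP day 7 (1) gave 4 by DESeq2 and by the odd or even number, and 3 by no filter, all groups, the block and GH1. SP against LP day 28 (5) gave 11 by DESeq2 and 3 with the block. Calls over all genes under these settings are those given above.

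Leaving out 1 sample gave 0 calls for SP against LP day 1, 0 to 6 for LP day 7 and 4 to 12 for LP day 28 among all members, and 0, 0 to 3 and 3 to 8 among those listed for the other experiment. It gave 0 for LP day 1 against LP day 7, 0 to 1 for LP day 7 against LP day 28, 4 to 8 for LP day 1 against LP day 28 and 3 to 6 for the joint test.

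Of 22 called values of named members, none reversed. Other settings kept the call in 168 of 196 values and samples left out in 216 of 277. From LP day 1 to LP day 28, TSHB, GPLD1 and GNPTAB kept it under every setting run. GPLD1 and SPOCK2 kept it from SP to LP day 28, where the block took GNPTAB to an FDR of 0.0796. The block took ANGPTL2 (0.0919) and PTPRO (0.0709) out of LP day 1 against LP day 28. Mean correlations of same-numbered deviations ran from -0.07 to 0.13, and single pairs from -0.25 to 0.42. The main test used no pairing by sample number. Scaling by library size moved the median of all genes from SP to LP day 28 to -0.09, and the split of all calls from 63 higher and 37 lower to 45 and 80. The cause was not tested. The shallow LP day 1 sample 4 limits low members at that day.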
